A study of Homo sapiens with 6 samples.

Results

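The genes described here are 38 genes of autophagy and the lysosome, chosen by their symbols and followed through p53 activation in HCT116 cells. Each symbol was looked up in the deposited gene names, where 37 of the 38 were found, and ATG101 was found under an older symbol. All 38 passed the filter on low counts, as did 16565 of the 57905 genes in the count table. HCT116 is a human colorectal carcinoma cell line with a wild-type p53 response. Cells received DMSO, the solvent of the drug (Nut0h), or Nutlin-3a at 10 µM for 1 h (Nut1h) or 10 h (Nut10h). Nutlin-3a frees p53 from HDM2, the ubiquitin ligase that keeps its level low. RNA-seq was made from 2 biological replicates of each of the 3 conditions, giving 6 libraries. All of them come from 1 cell line without a p53-deficient control, and Nut0h is the reference for both Nutlin-3a times, so both comparisons against it share the same 2 libraries.

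Autophagy encloses cytoplasm in a membrane vesicle, the autophagosome, which fuses with the lysosome where hydrolases digest its content. The ULK kinase complex starts the process, a class III PI3-kinase complex marks the growing membrane, lipid transfer proteins extend it, and a ubiquitin-like conjugation cascade attaches proteins of the ATG8 family to it. Cargo receptors bind both the cargo and ATG8 proteins, and the transcription factor TFEB controls many lysosomal genes. p53 is known to induce a few genes that act in this pathway, among them DRAM1, a lysosomal membrane protein, and TP53INP1, a p53-inducible nuclear protein that also binds ATG8 proteins.

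The libraries held between 26068076 and 35473485 counts on genes, and the lowest count of any member in any library was 71, for TFEB. Levels are given as normalized counts, that is counts scaled by the library size after TMM normalization, so that levels can be compared between libraries but, between genes, only per length. The epithelial markers EPCAM, KRT8, KRT18, KRT19 and CDH1 lay between 2211 and 123269 normalized counts, while the immune markers PTPRC and CD3E reached at most 1.93 and CD14 6.57. The fibroblast marker DCN had 0 counts in all 6 libraries, COL1A2 reached 23.3 and COL1A1 lay between 782 and 1394, and the endothelial markers CDH5 and VWF reached 1.26 and 22.2. Mitochondrial genes took 8.15% and 8.44% of the counts in the Nut1h libraries and between 4.99% and 7.06% in the other libraries. Exons of 22 members overlap those of another annotated gene, and since the sources used here do not give the strand setting of the counting, reads of such pairs could not be separated.

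Across the 38 genes, nearly all calls at 10 h were upward, while those at 1 h went both ways. At 10 h, 15 members rose and 1 fell (ATG3) against Nut0h, where 14.1% of all tested genes rose and 14.9% fell. After 1 h, 13 members rose and 13 fell, against 34.5% and 32.3% of all tested genes, so that the members' shares (34.2% each) were near the background at this time in the fit without a GC-content offset. Between 1 h and 10 h, 18 members rose and 10 fell, against 34.2% and 33.7% of all tested genes. The median log2 fold change of the members was 0.13 at 10 h and 0.15 at 1 h, beside medians of 0.00017 and 0.05 over all tested genes. A gene was called when edgeR's quasi-likelihood test gave a Benjamini-Hochberg adjusted p of at most 0.05 over all tested genes, and "rose" and "fell" are used for called genes.

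One property of the transcripts ran with the 1 h values throughout. The members' log2 fold changes at 1 h fell as the GC content of their longest annotated transcript rose (Pearson r = -0.793 over the 38 genes, a description across genes that share libraries), and the same held over the tested genes with a known GC content (r = -0.689). At 10 h the members' r was -0.106. Of the 8 members with a GC content under 40%, 7 rose at 1 h, and all 6 members above 60% fell, beside 82.6% and 84.4% of all tested genes in the same ranges. Since both Nut1h libraries show this, a difference between the libraries and an effect of the treatment cannot be told apart, and the log2 fold changes of members at 1 h are therefore given below with their value in a fit with a GC-content offset, in which each library's smooth trend on GC content was removed. With the offset, 5 of the 38 members rose and 19 fell at 1 h (13.2% and 50%), beside 19.1% and 27.3% of all tested genes in the same fit, so the shares that were near the background without the offset were apart from it with the offset. At 10 h, 16 rose and 4 fell with the offset, beside 18.6% and 20.4% of all tested genes, and between 1 h and 10 h 25 rose and 4 fell, beside 32.2% and 25.9%. The members' median at 1 h turned from 0.15 to -0.22 with the offset, that of all tested genes from 0.05 to -0.043, and the r at 1 h was -0.0102.

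**Figure D1:**
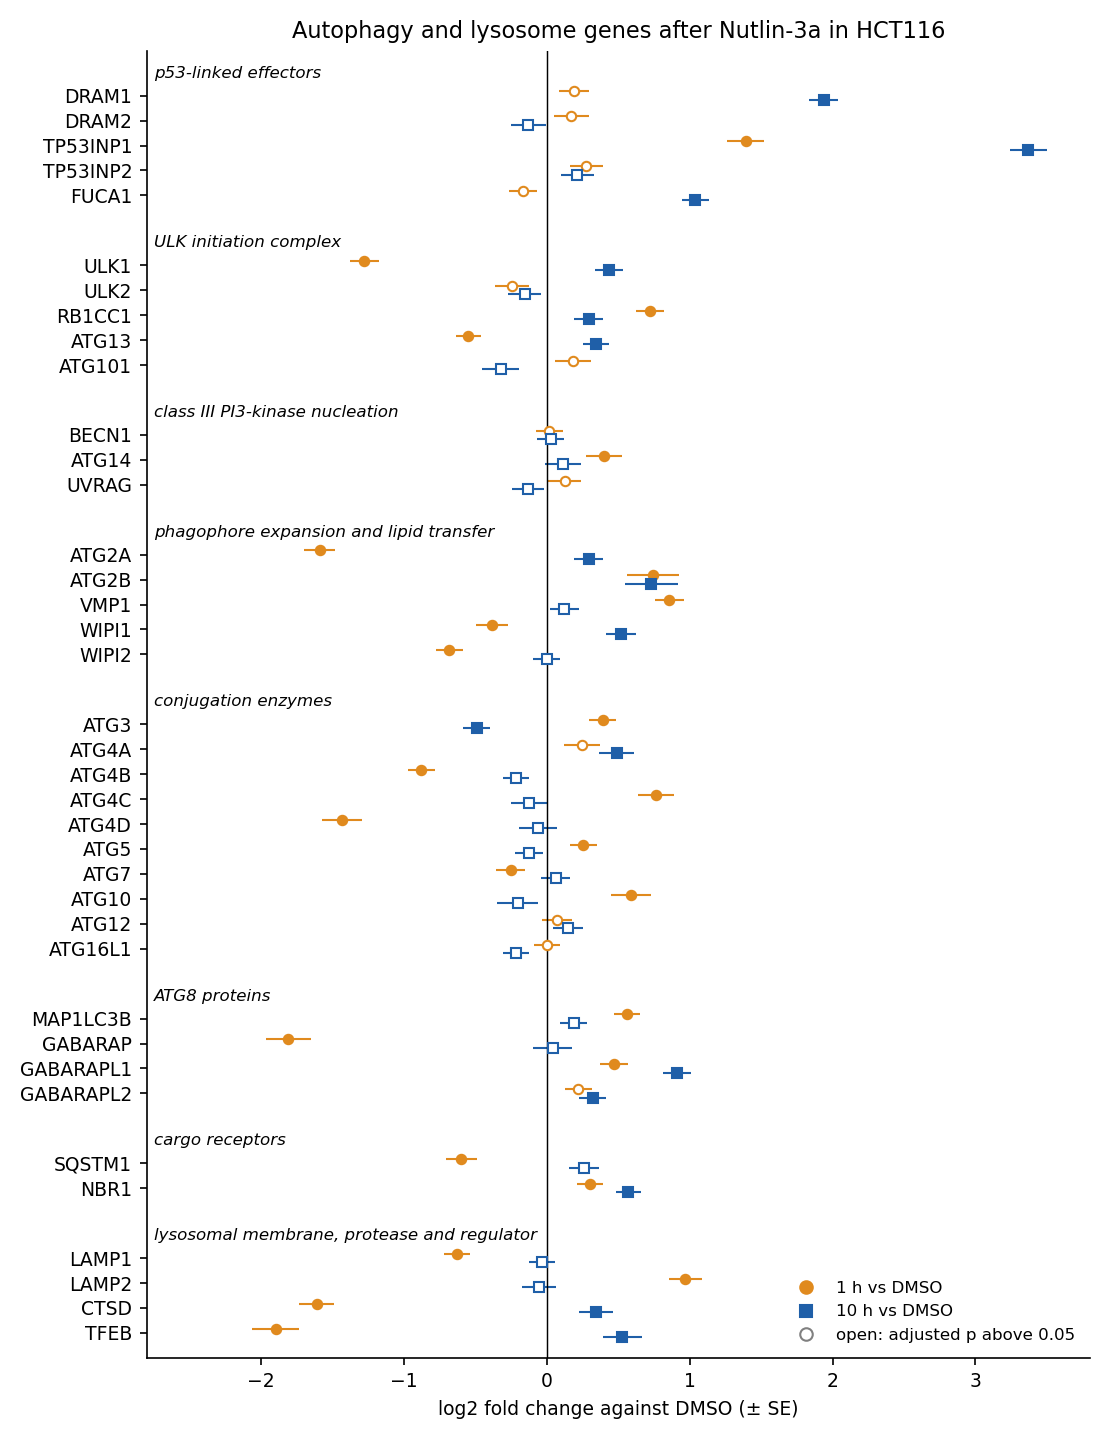
Log2 fold changes against DMSO (± SE) of the 38 genes, grouped by role, at 1 h (orange circles) and 10 h (blue squares); open symbols have an adjusted p above 0.05. TP53INP1 at 3.37, DRAM1 at 1.94 and FUCA1 at 1.04 stand to the right at 10 h, and the 1 h values spread to both sides, from -1.90 for TFEB to 1.39 for TP53INP1.

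**Figure D2:**
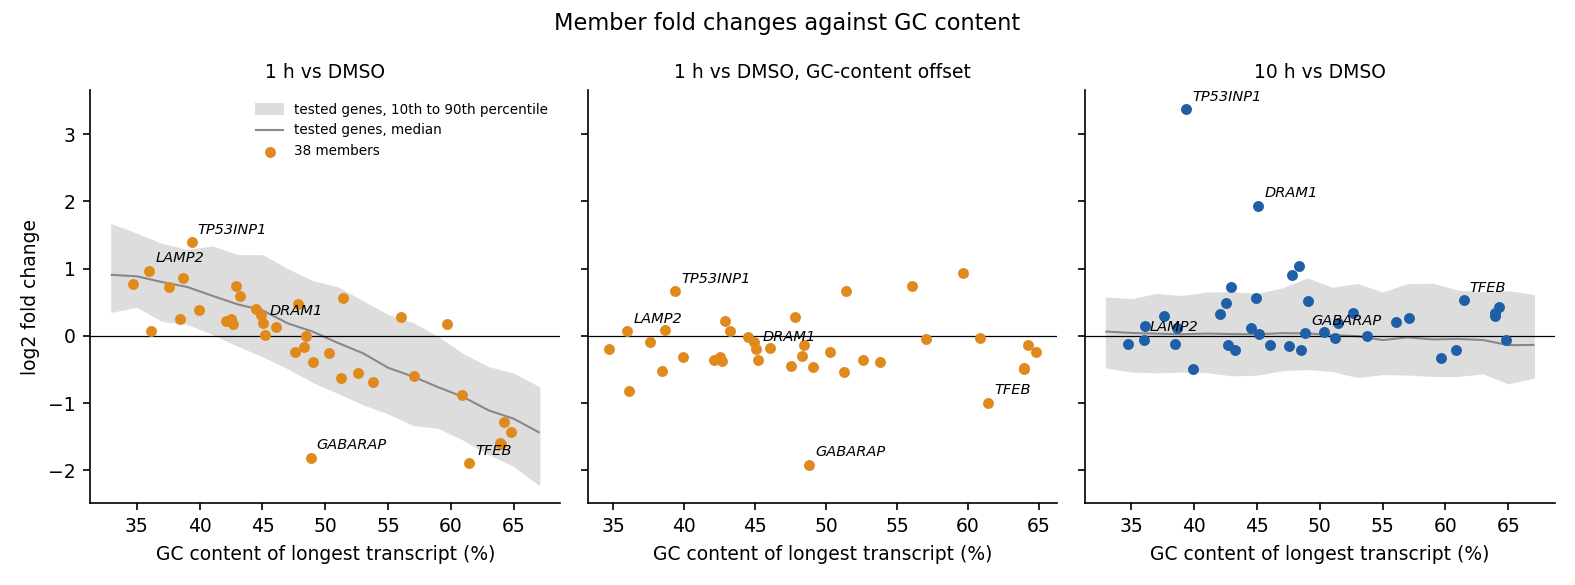
Log2 fold change of the 38 members (points) against the GC content of the longest transcript, for 1 h, for 1 h with the GC-content offset and for 10 h. The grey line and band are the median and the 10th to 90th percentile of all tested genes in GC ranges 2 percentage points wide. They are drawn only in the panels without the offset. The downward slope at 1 h (r = -0.793 for the members) is not seen at 10 h (r = -0.106), and GABARAP lies far below the band at 1 h.

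Among the 5 members grouped here as p53-linked effectors, TP53INP1, DRAM1 and FUCA1 rose at 10 h. In the fit without offsets only TP53INP1 had already risen at 1 h. Of all tested genes, 14.1% rose at 10 h and 34.5% at 1 h. With the GC-content offset 3 of the 5 rose at 10 h (beside 18.6% of all tested genes). At 1 h 2 rose and 2 fell with it (beside 19.1% and 27.3%). TP53INP1 stood at 254 and 295 normalized counts at Nut0h, 743 and 696 at Nut1h, and 2547 and 3125 at Nut10h. The libraries of the 3 conditions did not overlap, and each step was upward. Its level was 10.3-fold higher at 10 h than at Nut0h (log2 fold change 3.37 ± 0.13 SE, adjusted p = 7.63e-10) and 2.62-fold higher at 1 h (1.39 ± 0.13, adjusted p = 8.2e-07). With the GC-content offset these values were 3.34 and 0.66, both still called, so the size of the early rise depended on the offset and the late rise did not. From 1 h to 10 h the level rose a further 3.94-fold (1.98 on the log2 scale, adjusted p = 8.56e-09, and 2.68 with the offset).

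DRAM1 (chr12:102271358-102405908, + strand, GRCh37) had 718 and 660 normalized counts at Nut0h, 768 and 804 at Nut1h, and 2521 and 2755 at Nut10h. Both Nut10h libraries lay above the other 4, and the Nut1h libraries were only slightly above Nut0h. The rise at 10 h was 3.83-fold (log2 fold change 1.94 ± 0.10, adjusted p = 7.77e-09, 1.91 with the offset), while the 1 h value of 0.19 ± 0.10 did not pass (adjusted p = 0.12, and -0.19 with the offset, adjusted p = 0.0713), but was 0.30 and called higher with an offset for transcript length (adjusted p = 0.0143). FUCA1, which encodes the lysosomal alpha-L-fucosidase that removes fucose from glycans (chr1:24171567-24194780, - strand), had 846 and 899 normalized counts at Nut0h, 795 and 763 at Nut1h, and 1818 and 1769 at Nut10h. The Nut10h libraries again stood apart above the other 4. FUCA1 rose 2.05-fold at 10 h (1.04 ± 0.10, adjusted p = 1.57e-06, 1.01 with the offset) and did not pass at 1 h (-0.16 ± 0.10, adjusted p = 0.154), although the offset made that value -0.31 and significant (adjusted p = 0.00371).

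The stretch of 250 bases before the annotated start is shown for DRAM1 and FUCA1, because both rose between 1 h and 10 h (1.75 ± 0.10 and 1.20 ± 0.10 on the log2 scale, adjusted p = 5.81e-09 and 1.2e-07) without a called change at 1 h in the fit without offsets. The starts are those of RefSeq on GRCh38.p14, the places are exact matches in GRCh37, and the strand of the gene is given 5′ to 3′. Neither stretch holds the consensus decamer of p53, which in pairs makes up the p53 response element, or CACGTG, the core bound by TFEB and related factors, so no letter is in capitals. That says only that these letters are not in these windows.
DRAM1, chr12:102271108-102271357, + strand: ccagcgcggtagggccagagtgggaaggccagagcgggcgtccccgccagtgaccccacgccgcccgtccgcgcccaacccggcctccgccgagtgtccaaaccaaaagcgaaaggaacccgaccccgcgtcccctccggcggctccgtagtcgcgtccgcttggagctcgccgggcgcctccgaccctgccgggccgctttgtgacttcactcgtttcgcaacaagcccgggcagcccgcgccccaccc
FUCA1, chr1:24194781-24195030, - strand: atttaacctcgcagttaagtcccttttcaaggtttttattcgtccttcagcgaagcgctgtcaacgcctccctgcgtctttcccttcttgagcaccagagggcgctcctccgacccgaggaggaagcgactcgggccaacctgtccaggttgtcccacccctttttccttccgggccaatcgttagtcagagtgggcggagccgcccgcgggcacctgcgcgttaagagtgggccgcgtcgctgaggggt

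The paralogs of DRAM1 and TP53INP1 were not called higher at 10 h, and the difference between paralogs was not tested. DRAM2, a lysosomal membrane protein related to DRAM1, had 543 and 646 normalized counts at Nut0h, 691 and 648 at Nut1h, and 499 and 587 at Nut10h. Nut0h and Nut10h overlapped, and the log2 fold change at 10 h was -0.13 ± 0.12 (adjusted p = 0.462). Its 1 h value of 0.17 was not called (adjusted p = 0.225) but was -0.37 and called lower with the offset (adjusted p = 0.00327). Its fall from 1 h to 10 h passed (-0.30 ± 0.12, adjusted p = 0.0402), and it was lost in DESeq2 (adjusted p = 0.159) and without Nut10h replicate 1 or either Nut1h replicate, and turned to 0.21 with the offset. TP53INP2, which binds ATG8 proteins during autophagosome formation, had 328 and 347 normalized counts at Nut0h, 389 and 429 at Nut1h, and 379 and 402 at Nut10h. All 4 treated libraries lay above both vehicle libraries, but neither difference passed (0.28 ± 0.12 at 1 h, adjusted p = 0.0502, and 0.21 ± 0.12 at 10 h, adjusted p = 0.194). The 1 h value passed with scaling by library totals only (adjusted p = 0.0274), the filter at a mean of at least 100 counts (0.038), a replicate block (0.0487) and the length offset (0.0417), and with the GC-content offset it was 0.74 (adjusted p = 3.79e-05).

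**Figure D3:**
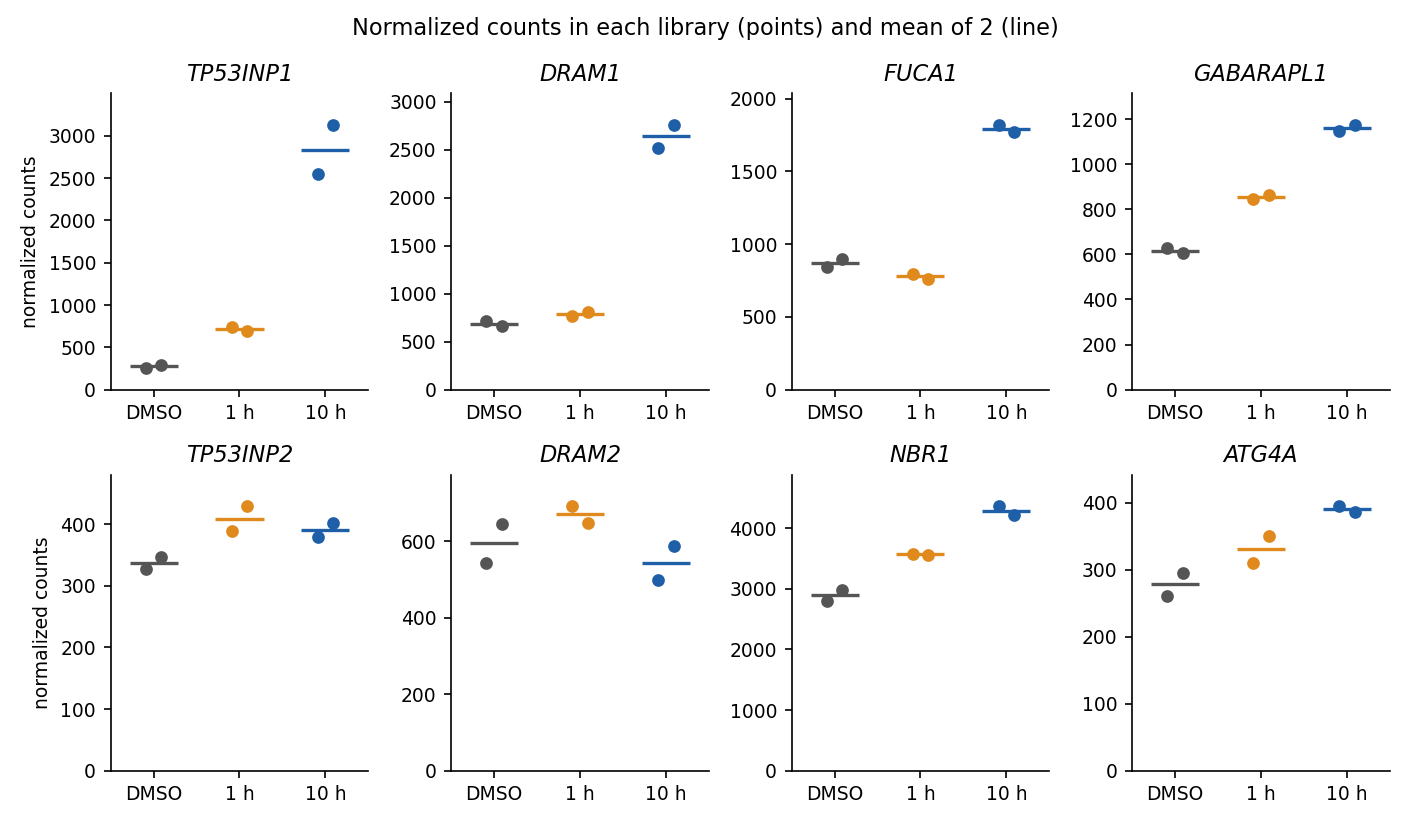
Normalized counts of 8 members in each library (points) with the mean of the 2 libraries of a condition (lines), in vehicle and Nutlin-3a cells; every vertical axis starts at 0. TP53INP1, DRAM1 and FUCA1 are highest at 10 h, GABARAPL1 and NBR1 climb at both times, and DRAM2 overlaps between DMSO and 10 h.

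The ULK complex phosphorylates the first autophagy factors and is made of the kinase ULK1 or ULK2 with RB1CC1 (FIP200), ATG13 and ATG101. At 10 h, 3 of these 5 rose and none fell in the edgeR fit, while at 1 h 1 rose and 2 fell. Of all tested genes, 14.1% rose at 10 h, and 34.5% rose and 32.3% fell at 1 h. With the offset 3 of the 5 rose and 1 fell at 10 h (beside 18.6% and 20.4%), and 1 rose and 2 fell at 1 h (beside 19.1% and 27.3%). ULK1 (chr12:132379167-132407695, + strand) had 2200 and 2062 normalized counts at Nut0h, 889 and 870 at Nut1h, and 3065 and 2695 at Nut10h. Its Nut1h libraries were the lowest and its Nut10h libraries the highest, with no overlap. The fall at 1 h was to 0.413 of the vehicle level (log2 fold change -1.28 ± 0.10, adjusted p = 2.55e-07), and at 10 h the level was 1.35-fold above it (0.43 ± 0.10, adjusted p = 0.00381). ULK1 has a GC content of 64.2%, and with the offset its 1 h value was -0.13 and not called (adjusted p = 0.156), while the 10 h value was 0.51.

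ATG13 (chr11:46639077-46696368, + strand), the regulatory subunit of the complex, had the same order of conditions as ULK1. It stood at 2716 and 2557 normalized counts at Nut0h, 1761 and 1845 at Nut1h, and 3376 and 3317 at Nut10h. Again no library of one condition reached into another. It fell at 1 h (-0.55 ± 0.09, adjusted p = 0.000103, -0.35 with the offset) and rose at 10 h (0.34 ± 0.09, adjusted p = 0.00994), the latter lost without Nut0h replicate 2 (adjusted p = 0.0964). RB1CC1, the scaffold of the complex, rose at 1 h (0.72 ± 0.10, -0.10 with the offset) and at 10 h (0.29 ± 0.10, adjusted p = 0.043), but the 10 h call was lost with DESeq2 (adjusted p = 0.0756) and in 5 of the 6 fits that each leave out 1 library, all but that without Nut10h replicate 1. ULK2 had between 419 and 563 normalized counts and was called in none of the 3 comparisons in the fit of all 6 libraries without an offset, but it was called lower at 1 h without Nut0h replicate 1 (-0.37, adjusted p = 0.0275) and without either Nut10h replicate (adjusted p = 0.0323 and 0.0319). With the GC-content offset it was lower at 1 h (-0.44, adjusted p = 0.00182, beside -0.24 without it) and higher from 1 h to 10 h (0.26, adjusted p = 0.0391). ATG101, which stabilizes ATG13, was not called at 1 h (0.18) or at 10 h (-0.32, adjusted p = 0.0705) and fell between these times (-0.51 ± 0.13, adjusted p = 0.00284, but 0.057 without Nut1h replicate 2). The 10 h value was called lower without Nut0h replicate 2 (-0.47, adjusted p = 0.0123), without Nut10h replicate 1 (-0.43, adjusted p = 0.0148) and without the low-count filter (-0.37, adjusted p = 0.0171). With the GC-content offset ATG101 was called in all 3 comparisons, at 0.94 at 1 h (adjusted p = 4.01e-07), the highest 1 h value of any member in that fit, -0.29 at 10 h (adjusted p = 0.0163) and -1.22 between the times (adjusted p = 6.75e-09).

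Of the 3 class III PI3-kinase genes, only ATG14 was called in the TMM-scaled fit of all 6 libraries without an offset. That is 33.3% higher at 1 h, near the 34.5% of all tested genes. With the offset 0 rose and 1 fell at 1 h (beside 19.1% and 27.3%). BECN1, the core regulatory subunit, lay between 1817 and 2006 normalized counts in all 6 libraries, with log2 fold changes of 0.02 ± 0.10 at 1 h and 0.03 ± 0.10 at 10 h and overlapping groups in all 3 comparisons. With the offset BECN1 was called lower at 1 h (-0.36, adjusted p = 0.00215) and higher from 1 h to 10 h (0.36, adjusted p = 0.0015). UVRAG, a BECN1 partner that acts in endosome and autophagosome maturation, lay between 355 and 434 and was not called with or without the offset, although with scaling by library totals only it was lower from 1 h to 10 h (-0.29, adjusted p = 0.0442). ATG14, which directs the complex to the site where autophagosomes form, rose at 1 h (0.40 ± 0.13, adjusted p = 0.0124), but the value was -0.020 with the offset and was not called by DESeq2 (adjusted p = 0.0547), without Nut0h replicate 1 (0.0553) or without Nut1h replicate 2 (0.12). From 1 h to 10 h ATG14 was not called (-0.29, adjusted p = 0.0557, and 0.10 with the offset). It was called lower with a replicate block (-0.30, adjusted p = 0.0251) and without the low-count filter (-0.29, adjusted p = 0.0408). Without Nut10h replicate 2 this value was -0.45. None of the 3 genes was called at 10 h, with or without the offset. At that time 14.1% of all tested genes rose and 14.9% fell (18.6% and 20.4% with the offset).

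In the fit without an offset, the 5 genes of membrane expansion held both large falls and large rises at 1 h. There 2 rose and 3 fell at 1 h (beside 34.5% and 32.3% of all tested genes). At 10 h 3 rose and 0 fell (beside 14.1% and 14.9%). With the GC-content offset 0 rose and 3 fell at 1 h (beside 19.1% and 27.3%), and 3 rose and 0 fell at 10 h (beside 18.6% and 20.4%). ATG2A and ATG2B carry lipids into the growing membrane, VMP1 is a lipid scramblase of the endoplasmic reticulum, and WIPI1 and WIPI2 bind the lipid made by the PI3-kinase. ATG2A (chr11:64662018-64684681, - strand) had 2298 and 2029 normalized counts at Nut0h, 715 and 721 at Nut1h, and 2855 and 2443 at Nut10h. The Nut1h libraries were far below all others, and the Nut10h libraries were above both vehicle libraries. It fell to 0.332 of the vehicle level at 1 h (-1.59 ± 0.11, adjusted p = 1.11e-07, -0.47 with the offset, GC content 63.9%). The 10 h rise was small (0.29 ± 0.10, adjusted p = 0.048) and was lost with DESeq2 (adjusted p = 0.102) and in 4 of the 6 fits that each leave out 1 library (those without Nut0h replicate 2, Nut10h replicate 1 or either Nut1h replicate).

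ATG2B, with the lowest level per kb of transcript of all members (14.1 ± 2.33 normalized counts per kb at Nut0h, SD, n = 2), rose at both times. Its libraries held 163 and 207 normalized counts at Nut0h, 354 and 262 at Nut1h, and 263 and 352 at Nut10h. All 4 treated libraries exceeded the vehicle libraries, and the treated times overlapped each other. The log2 fold changes were 0.74 ± 0.18 at 1 h (adjusted p = 0.00272, 0.22 and not called with the offset, and 0.50 with an adjusted p of 0.0771 without Nut1h replicate 1) and 0.73 ± 0.18 at 10 h (adjusted p = 0.00796, 0.71 with the offset). VMP1 (chr17:57784553-57919616, + strand) had 3487 and 3804 normalized counts at Nut0h, 6812 and 6385 at Nut1h, and 3672 and 4269 at Nut10h. Only the Nut1h libraries stood apart, 1.81-fold above the vehicle (0.86 ± 0.10, adjusted p = 5.41e-06), and with the offset the difference was 0.09 and not called (GC content 38.6%). The microRNA gene MIR21 lies within the annotated exons of VMP1.

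WIPI1 (chr17:66417089-66453654, - strand) had 477 and 490 normalized counts at Nut0h, 374 and 366 at Nut1h, and 725 and 663 at Nut10h. The 3 conditions did not overlap, and the order was that of ULK1. It fell at 1 h (-0.39 ± 0.11, adjusted p = 0.00706, -0.47 with the offset, and just short of the threshold without Nut1h replicate 1 at 0.0502 or replicate 2 at 0.0527, and -0.12 with an adjusted p of 0.341 with an offset for transcript length) and rose 1.43-fold at 10 h (0.52 ± 0.11, adjusted p = 0.00207, 0.49 with the offset). WIPI2 fell at 1 h (-0.68 ± 0.10, -0.39 with the offset), and its mean of 3497 ± 271 normalized counts at 10 h (SD, n = 2) was close to the 3498 ± 0.65 of the vehicle.

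Of the 10 conjugation enzymes, 1 rose and 1 fell at 10 h (10.0% each, near the 14.1% and 14.9% of all tested genes), and 4 rose and 3 fell at 1 h (34.5% and 32.3% of all tested genes). With the offset 1 rose and 3 fell at 10 h (18.6% and 20.4% of all tested genes in that fit), and 0 rose and 6 fell at 1 h (19.1% and 27.3%). ATG3, the E2-like enzyme that joins ATG8 proteins to phosphatidylethanolamine (chr3:112251357-112280893, - strand), had 1873 and 1755 normalized counts at Nut0h, 2273 and 2487 at Nut1h, and 1311 and 1268 at Nut10h. Its order was the reverse of that of ULK1, with the Nut1h libraries highest and the Nut10h libraries lowest. It rose at 1 h (0.39 ± 0.09, adjusted p = 0.00212) and fell to 0.711 of the vehicle level at 10 h (-0.49 ± 0.09, adjusted p = 0.00143). With the offset the 10 h fall was -0.51 and the 1 h value was -0.31, called in the other direction (adjusted p = 0.0089). The 1 h rise also lost its call without Nut1h replicate 2 (0.32, adjusted p = 0.0558).

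The cysteine proteases of the ATG4 family, which process ATG8 proteins and release them from membranes, were called in different directions, and differences between them were not tested. ATG4A rose at 10 h (0.49 ± 0.12, adjusted p = 0.00855), with 261 and 295 normalized counts at Nut0h, 310 and 350 at Nut1h, and 394 and 386 at Nut10h, a call lost without Nut0h replicate 1 (adjusted p = 0.0647). At 1 h ATG4A was not called (0.24, adjusted p = 0.103) but was -0.31 and called lower with the offset (adjusted p = 0.0372). ATG4C (chr1:63249803-63331187, + strand) had 262 and 317 normalized counts at Nut0h, 490 and 496 at Nut1h, and 253 and 279 at Nut10h. The Nut1h libraries of ATG4C were above the other 4, which overlapped each other. ATG4C rose at 1 h (0.77 ± 0.13, adjusted p = 0.000109) and has the lowest GC content of the members (34.7%), and its value was -0.19 with the offset. ATG4B and ATG4D, with GC contents of 60.9% and 64.8%, fell at 1 h (-0.88 ± 0.09 and -1.43 ± 0.14, -0.03 and -0.24 with the offset). Neither was called at 10 h (-0.22 and -0.06), though ATG4B was called lower with the offset (-0.17, adjusted p = 0.0444) and ATG4D without Nut10h replicate 1 (-0.32, adjusted p = 0.0466), and the 2 Nut10h libraries of ATG4D lay apart, at 2024 and 1448 normalized counts.

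Of the other conjugation enzymes, ATG10, the E2-like enzyme for ATG12, had 215 and 196 normalized counts at Nut0h, 315 and 302 at Nut1h, and 162 and 194 at Nut10h. Its Nut1h libraries were the highest, and both Nut10h libraries lay just under the vehicle. It rose at 1 h (0.59 ± 0.14, adjusted p = 0.00176, 0.08 with the offset) and fell from 1 h to 10 h (-0.79 ± 0.14, adjusted p = 0.00017, -0.31 with the offset, adjusted p = 0.0429, and no longer called with the offset and a replicate block, adjusted p = 0.0529). ATG7, the E1-like enzyme of both branches, fell at 1 h (-0.25 ± 0.10, adjusted p = 0.043, -0.24 with the offset), a call lost in the 4 fits that each leave out a Nut0h or Nut1h library. ATG5, which is joined to ATG12, rose at 1 h (0.26 ± 0.10, adjusted p = 0.0289), a call lost in all 6 fits that each leave out 1 library, and was -0.52 with the offset. ATG12 itself and ATG16L1, which guides the ATG12 and ATG5 conjugate to the membrane, were not called in any comparison in the TMM-scaled fit without an offset, with ATG12 between 3893 and 4856 and ATG16L1 between 1373 and 1659 normalized counts. With the offset ATG12 was lower at 1 h (-0.82, adjusted p = 1.13e-07, beside 0.073 without it) and higher from 1 h to 10 h (0.95, adjusted p = 5.9e-09). ATG16L1 was lower at 10 h with the offset (-0.24, adjusted p = 0.00945), and lower from 1 h to 10 h with scaling by library totals only (-0.25, adjusted p = 0.033) and with the filter at a mean of at least 100 counts (-0.22, adjusted p = 0.032).

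The 4 ATG8 proteins, which decorate the autophagosome membrane and bind cargo receptors, were called in different directions at 1 h, and none was called lower at 10 h. At 1 h 2 rose and 1 fell (beside 34.5% and 32.3% of all tested genes), and 2 and 2 with the offset (beside 19.1% and 27.3%). At 10 h 2 rose and 0 fell (beside 14.1% and 14.9%), as they did with the offset (beside 18.6% and 20.4%). GABARAP (chr17:7143327-7145768, - strand) had 465 and 439 normalized counts at Nut0h, 107 and 154 at Nut1h, and 482 and 448 at Nut10h. The 2 Nut1h libraries were far below the other 4, which overlapped. It fell to 0.285 of the vehicle level at 1 h (-1.81 ± 0.16, adjusted p = 4.41e-07) and was at 0.04 ± 0.13 at 10 h (adjusted p = 0.855). Of the 6 members that fell by more than 1 on the log2 scale at 1 h, the other 5 were between -0.99 and -0.13 with the GC-content offset, whereas GABARAP, at a GC content of 48.8%, was at -1.91, and at -1.58 with an offset for transcript length. A readthrough gene annotated on the same strand shares 691 bases of exon with GABARAP, and its part in the count was not tested.

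GABARAPL1 (chr12:10365057-10375727, + strand) rose at both times. It had 629 and 605 normalized counts at Nut0h, 846 and 862 at Nut1h, and 1147 and 1173 at Nut10h. The 3 conditions were well separated, in the order of time. The level was 1.38-fold higher at 1 h (0.47 ± 0.10, adjusted p = 0.000789, 0.29 with the offset) and 1.88-fold higher at 10 h (0.91 ± 0.10, adjusted p = 7.59e-06, 0.88 with the offset), and it was called in the same direction in all 16 refits at both times. MAP1LC3B, the LC3 protein used to track autophagosomes, had 1688 and 1855 normalized counts at Nut0h, 2615 and 2610 at Nut1h, and 1963 and 2074 at Nut10h. It rose 1.47-fold at 1 h (0.56 ± 0.09, adjusted p = 0.000109, 0.66 with the offset), and its 10 h value of 0.19 ± 0.09 did not pass (adjusted p = 0.149). GABARAPL2 had 1123 and 1182 normalized counts at Nut0h, 1356 and 1330 at Nut1h, and 1394 and 1488 at Nut10h, in the order of time and without overlap, as for GABARAPL1. Its 1 h value of 0.22 ± 0.10 did not pass (adjusted p = 0.0536), though it did with scaling by library totals only (0.0277), the filter at a mean of at least 100 counts (0.0366) and the length offset (0.000585), and was -0.36 and called lower with the offset (adjusted p = 0.000559). GABARAPL2 rose at 10 h (0.32 ± 0.09, adjusted p = 0.0201), a call lost in 5 of the 6 fits that each leave out 1 library, all but that without Nut10h replicate 1, among them Nut10h replicate 2 (adjusted p = 0.0795).

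Levels of the ATG8 genes were set side by side per kb of the canonical transcript. By this length the vehicle cells held 1183 ± 43.1 normalized counts per kb of GABARAPL2 (SD, n = 2), 825 ± 54.8 of MAP1LC3B, 343 ± 13.6 of GABARAP and 328 ± 9.13 of GABARAPL1, the last pair differing by less than the sum of their SDs. At 1 h GABARAP was at 98.9 ± 24.8 per kb and GABARAPL1 at 453 ± 6.13, and at 10 h GABARAPL1 was at 616 ± 9.73 and GABARAP at 353 ± 18.7. The order depends on the transcript chosen, since the canonical GABARAPL1 transcript has 1883 bases and the longest 3214. Per kb of the longest transcript, a length tried after the values were seen, GABARAPL1 was at 192 ± 5.35 in vehicle cells, below GABARAP at 343 ± 13.6, and at 361 ± 5.70 at 10 h, within the spread of GABARAP at 353 ± 18.7, while MAP1LC3B at 565 ± 37.6 was above GABARAPL2 at 507 ± 18.5 in vehicle cells.

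**Figure D4:**
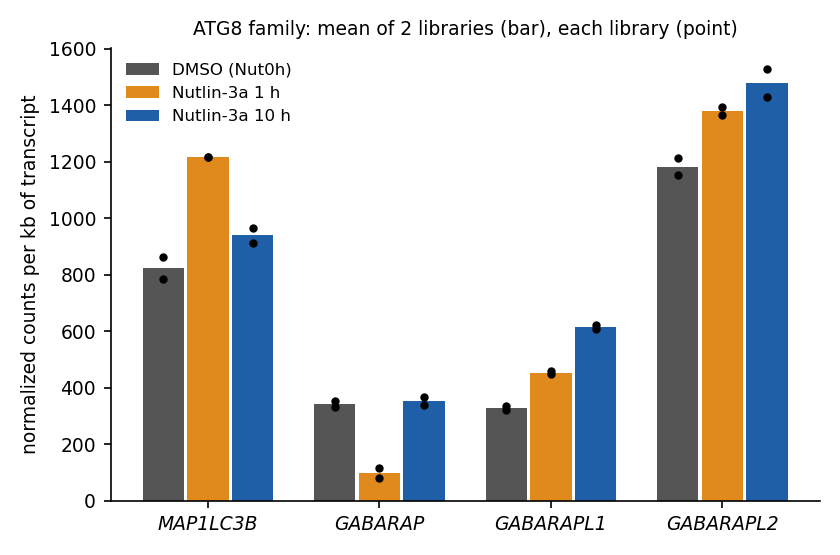
Normalized counts per kb of the canonical transcript of the 4 ATG8 genes, as the mean of 2 libraries (bars) with each library as a point, for DMSO (grey), 1 h (orange) and 10 h (blue) of Nutlin-3a. GABARAP is low at 1 h only, at 98.9 per kb, and GABARAPL1 goes from 328 over 453 to 616.

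GABARAPL1 was also the only member with a p53 consensus decamer in the 250 bases before an annotated start, among the 33 members with an entry in the RefSeq promoter table. The decamer is a palindromic pattern, so both strands were searched at the same time, and 5.57% of the 35116 promoters of that table hold it, or 6.80% of its 27305 genes counted once each. The 33 members have 41 promoters in the table, of which 1 holds it. A window of 30 bases around it is shown, with the decamer in capitals. The 250-base window overlaps annotated exon of GABARAPL1 itself, and a match to the pattern is a description of the sequence and does not show binding.
GABARAPL1, chr12:10365232-10365261, + strand: agggggaataAAACATGTTTaaatcttttt

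In the fit without the offset, both cargo receptors were called at 1 h, in opposite directions. At that time 34.5% of all tested genes rose and 32.3% fell. With the offset neither receptor was called at 1 h (beside 19.1% and 27.3%). At 10 h 1 rose and 0 fell (beside 14.1% and 14.9%), and with the offset 2 rose (beside 18.6%). NBR1, a receptor for ubiquitinated cargo, had 2805 and 2976 normalized counts at Nut0h, 3575 and 3559 at Nut1h, and 4361 and 4218 at Nut10h. Its conditions did not overlap and followed the order of time. It rose at 1 h (0.30 ± 0.09, adjusted p = 0.0078, -0.089 and not called with the offset, and not called without Nut0h replicate 1 or either Nut1h replicate, at adjusted p between 0.0644 and 0.101) and 1.48-fold at 10 h (0.57 ± 0.09, adjusted p = 0.000249, 0.54 with the offset). SQSTM1, which encodes the receptor p62, was among the most abundant members, with 11547 and 10182 normalized counts at Nut0h, 6849 and 7501 at Nut1h, and 14120 and 11922 at Nut10h. It fell at 1 h (-0.60 ± 0.11, adjusted p = 0.000222, -0.05 with the offset), and although both Nut10h libraries were above both vehicle libraries, the 10 h value of 0.26 ± 0.11 did not pass (adjusted p = 0.0849, 0.28 and called with the offset). It also passed with scaling by library totals only (adjusted p = 0.036), with the length offset (0.0214) and without Nut10h replicate 2 (0.39, adjusted p = 0.0193). MRNIP, on the opposite strand, shares 1582 bases of exon with SQSTM1.

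Of the 4 lysosomal genes, TFEB, CTSD and LAMP1 fell at 1 h and rose from 1 h to 10 h (2.43, 1.96 and 0.60 on the log2 scale, and 1.57, 0.91 and 0.49 with the offset), while LAMP2 went the other way (-1.03, and -0.15 and not called with the offset). Of all tested genes, 32.3% fell at 1 h and 34.2% rose from 1 h to 10 h (27.3% and 32.2% with the offset). TFEB (chr6:41651716-41703997, - strand) had 373 and 293 normalized counts at Nut0h, 89.3 and 89.4 at Nut1h, and 511 and 449 at Nut10h. Its Nut1h libraries were lowest and its Nut10h libraries highest, without overlap. It fell to 0.269 of the vehicle level at 1 h (-1.90 ± 0.16, adjusted p = 4.7e-07, -0.99 and still called with the offset) and was 1.44-fold above it at 10 h (0.53 ± 0.13, adjusted p = 0.00913). Without Nut0h replicate 2, the lower of the vehicle libraries, the 10 h value was 0.36 and no longer passed (adjusted p = 0.0763).

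CTSD, the lysosomal aspartic protease cathepsin D (chr11:1773982-1785803, - strand), had 6282 and 4986 normalized counts at Nut0h, 1745 and 1944 at Nut1h, and 7612 and 6696 at Nut10h. The order was that of TFEB. It fell to 0.327 of the vehicle level at 1 h (-1.61 ± 0.12, adjusted p = 1.97e-07, -0.49 with the offset, GC content 64.0%), and its 10 h rise of 0.34 ± 0.12 (adjusted p = 0.0389) was not called by DESeq2 (adjusted p = 0.0512) or in the same 4 fits that lost the call of ATG2A, and it was 0.18 without Nut0h replicate 2. LAMP2 (chrX:119560003-119603220, - strand), a lysosomal membrane glycoprotein, had 1340 and 1581 normalized counts at Nut0h, 3002 and 2722 at Nut1h, and 1262 and 1551 at Nut10h. Only the Nut1h libraries stood apart, and LAMP2 rose 1.96-fold at 1 h (0.97 ± 0.12, adjusted p = 6.96e-06). At a GC content of 36.0%, that value was 0.07 and not called with the offset (adjusted p = 0.409). LAMP1, its abundant relative, had 11176 and 10786 normalized counts at Nut0h, 6800 and 7378 at Nut1h, and 10975 and 10473 at Nut10h, and it fell at 1 h (-0.63 ± 0.09, adjusted p = 3.31e-05, -0.54 with the offset).

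CACGTG, the letters at the centre of the element that TFEB binds, was searched in the same 250-base windows because TFEB and 2 lysosomal genes fell together at 1 h. It reads the same on both strands, is present in 6.34% of the 35116 promoters (7.73% of the genes, counted once each), and was found in 4 of the 41 promoters of the 33 members (those of LAMP1, CTSD, ATG3 and ATG14). LAMP1 holds it 5 times, the highest number of any promoter in the table and reached by no other. The LAMP1 window is given in full and the CTSD site with 30 bases, since that window runs into annotated exons, with each CACGTG in capitals. ATG3 and ATG14, which also hold it, rose at 1 h in the fit without the offset. With the GC-content offset ATG3 was called lower at 1 h (-0.31) and ATG14 was not called (-0.020).
LAMP1, chr13:113951304-113951553, + strand: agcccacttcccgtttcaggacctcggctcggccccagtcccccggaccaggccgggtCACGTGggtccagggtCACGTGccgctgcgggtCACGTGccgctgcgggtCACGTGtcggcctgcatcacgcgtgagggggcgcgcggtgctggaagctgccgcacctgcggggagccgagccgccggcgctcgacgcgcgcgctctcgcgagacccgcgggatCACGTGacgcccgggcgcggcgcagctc
CTSD, chr11:1785187-1785216, - strand: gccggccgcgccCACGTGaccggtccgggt

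Read side by side, the calls against Nut0h in the fit without the offset sort the 38 genes into 7 patterns. Called higher at both times were 5, or 13.2% of the members beside 5.24% of all tested genes (TP53INP1, RB1CC1, ATG2B, GABARAPL1 and NBR1). Lower at 1 h and higher at 10 h were 6, or 15.8% beside 4.53% (ULK1, ATG13, ATG2A, WIPI1, CTSD and TFEB), and higher and then lower was 1, or 2.63% beside 4.74% (ATG3). Higher at 1 h and not called at 10 h were 7, or 18.4% beside 24.6% (ATG14, VMP1, ATG4C, ATG5, ATG10, MAP1LC3B and LAMP2), and lower at 1 h and not called at 10 h were another 7, beside 21.0% of all tested genes (WIPI2, ATG4B, ATG4D, ATG7, GABARAP, SQSTM1 and LAMP1). Not called at 1 h and higher at 10 h were 4, beside 4.36% of all tested genes (DRAM1, FUCA1, ATG4A and GABARAPL2), and 8 were called at neither time, or 21.1% beside 25.4%. These patterns depend on the offset. With it, 2 members (TP53INP1 and GABARAPL1) were called higher at both times, or 5.26% beside 4.15% of all tested genes. Lower at 1 h and higher at 10 h were 8 with the offset, beside 4.69% of all tested genes (FUCA1, ATG13, ATG2A, WIPI1, ATG4A, GABARAPL2, CTSD and TFEB), 10 were lower at 1 h only (beside 14.8%), 6 were higher at 10 h only (beside 9.71%), and 6 were called at neither time (beside 34.8%). Of the other 6, TP53INP2 and MAP1LC3B were higher at 1 h only, or 5.26% beside 11.4% of all tested genes. ATG4B and ATG16L1 were lower at 10 h only, or 5.26% beside 9.1%. ATG101 was higher and then lower, or 2.63% beside 3.57%, and ATG3 was lower at both times, or 2.63% beside 7.72%.

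**Figure D5:**
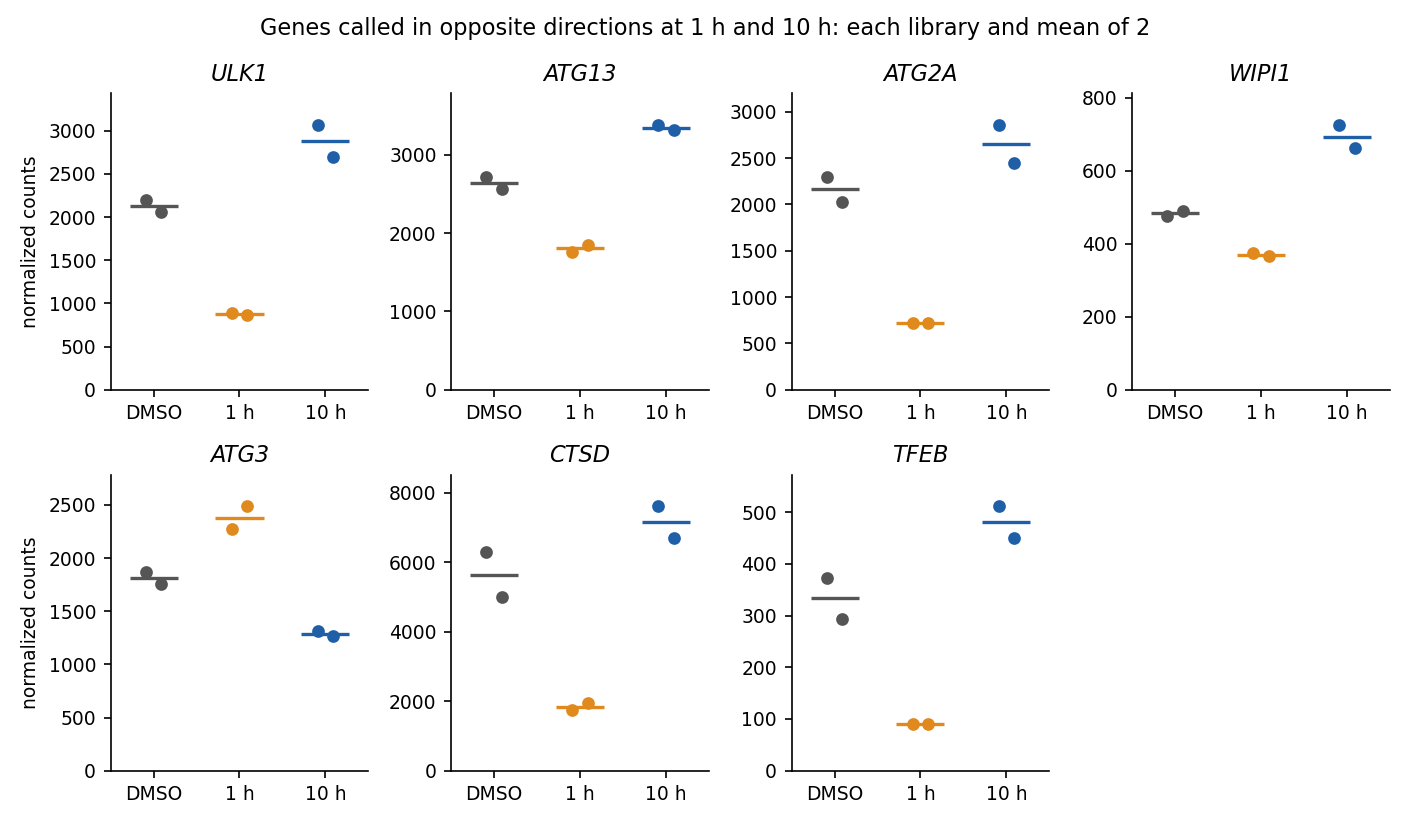
Normalized counts in each library (points) and the mean of 2 (lines) for the 7 genes called in opposite directions at 1 h and 10 h in the fit without the offset; every vertical axis starts at 0. For 6 of them the Nut1h libraries are lowest and the Nut10h libraries highest, with TFEB going from 89.3 and 89.4 to 511 and 449, and ATG3 shows the reverse.

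The calls against Nut0h were set against 16 refits with other scalings, filters, tools, offsets and libraries. Of the 15 members that rose at 10 h, 8 were called higher in all 16 refits (DRAM1, TP53INP1, FUCA1, ULK1, ATG2B, WIPI1, GABARAPL1 and NBR1), and all 15 were called with the GC-content offset. The other 7 (RB1CC1, ATG13, ATG2A, ATG4A, GABARAPL2, CTSD and TFEB) lost the call in at least 1 fit that left out a library, and 9 members rose without Nut0h replicate 2. Of the 13 that rose at 1 h, TP53INP1, MAP1LC3B and GABARAPL1 were called in all 16 refits, and the GC-content offset ended the other 10 calls. Of the 13 that fell at 1 h, 8 were called in every refit (ATG13, ATG2A, WIPI2, ATG4D, GABARAP, LAMP1, CTSD and TFEB). With the length offset DRAM1, DRAM2, TP53INP2, ATG101, ATG4A and GABARAPL2 were called higher and ULK2 lower at 1 h, and ATG2B and WIPI1 lost their 1 h calls.

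Other genes of the same pathway, from lists of well-known autophagy and lysosome genes that exclude the members, were counted in the same fit. Of 31 tested autophagy genes, 8 rose and 1 fell at 10 h, 8 rose and 14 fell at 1 h, and 14 rose and 7 fell from 1 h to 10 h. From 1 h to 10 h these are 45.2% and 22.6%, beside 34.2% and 33.7% of all tested genes, and with the offset 21 rose and 2 fell, beside shares of 32.2% and 25.9%. The other counts are 25.8% and 3.23% at 10 h (14.1% and 14.9% of all tested genes) and 25.8% and 45.2% at 1 h (34.5% and 32.3% of all tested genes). With the offset 13 rose and 4 fell at 10 h (41.9% and 12.9%, beside 18.6% and 20.4% of all tested genes in that fit), and 3 rose and 17 fell at 1 h (9.68% and 54.8%, beside 19.1% and 27.3%). RETREG1, a receptor for autophagy of the endoplasmic reticulum, rose at 10 h (1.05 ± 0.14, adjusted p = 7.25e-05), as did VAMP8, a SNARE protein of vesicle fusion (0.61 ± 0.12, adjusted p = 0.00169). TMEM41B, a scramblase that works with VMP1, rose at 1 h (1.33 ± 0.11, adjusted p = 3.12e-07, 0.56 with the offset). ATG9A, the scramblase of the seed vesicles, fell at 1 h (-1.09 ± 0.10, adjusted p = 5.59e-07, -0.33 with the offset). Of 45 tested lysosome genes, 10 rose and 6 fell at 10 h (22.2% and 13.3%), and 14 rose and 21 fell at 1 h (31.1% and 46.7%). With the offset 13 rose and 7 fell at 10 h (28.9% and 15.6%), and 4 rose and 20 fell at 1 h (8.89% and 44.4%), to be set against the same shares of all tested genes in that fit. IDUA and ARSA, which degrade glycosaminoglycans and sulfatides, rose at 10 h (1.03 ± 0.12 and 0.82 ± 0.10, adjusted p = 1.24e-05 and 4.34e-05), whereas the alpha-galactosidase gene GLA fell (-0.53 ± 0.10, adjusted p = 0.00106).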

How the data were processed

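Counts per gene of 6 RNA-seq libraries were used. The authors trimmed reads with Trim Galore 0.6.6, aligned them to GRCh37.p13 with STAR 2.7.0f and counted them per gene with featureCounts (Subread 2.0.0), and the deposited values are raw counts. Strand setting, treatment of multimapping reads and annotation release of the counting are not given in the sources used here. The authors name an Ensembl release for transcription start sites and gene-set analysis. The authors' table of their own DESeq2 1.36.0 fold changes and p-values was used only for gene names.

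Here, filterByExpr kept 16565 genes, TMM set the scaling and the test was that of edgeR 4.0.16 (quasi-likelihood, condition as the only term, all 6 libraries, 3 residual degrees of freedom) in R 4.3.3, with Benjamini-Hochberg adjustment over all tested genes and calls at an adjusted p of at most 0.05. Standard errors come from the log2 fold change and its F statistic. The tests were tested on simulated data. DESeq2 1.42.0 with its own filter, other scalings and filters, GC-content and length offsets (loess, span 0.4), a replicate block and leave-one-out fits were alternatives, which gives 16 refits and 2 stricter thresholds. GC content, transcript lengths and coordinates come from GENCODE on GRCh37, and promoters from RefSeq (GRCh38.p14), with entries for 33 of the 38 members.

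The members and lists were chosen with earlier results of these data known. Values in every library are given for the p53-linked genes, for the 4 largest called rises and falls of each comparison and for members called in opposite directions. Others are named within their role, and those with library values beyond this rule (ATG4A, ATG2B, NBR1, SQSTM1, MAP1LC3B, GABARAPL2, LAMP1) were chosen after their values were seen. Figures were drawn with matplotlib.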

Additional observations from a re-analysis of the deposited data

Results flagged for a closer look

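The 7 genes below were called in opposite directions at 1 h and 10 h, each against the same Nut0h libraries, and the difference between the times was itself tested as Nut10h against Nut1h with edgeR. Because the genes were chosen for these opposite calls, a difference in that direction follows from the choice. Its adjusted p-values are therefore descriptive and add no independent test. TFEB rose between the times by 2.43 on the log2 scale (adjusted p = 2.02e-08), CTSD by 1.96 (1.14e-08), ATG2A by 1.88 (6.64e-09), ULK1 by 1.71 (7.22e-09), WIPI1 by 0.91 (5.42e-06) and ATG13 by 0.89 (1.03e-06). ATG3 went the other way, by -0.88 (1.85e-06). With the GC-content offset these differences were 1.57, 0.91, 0.83, 0.64, 0.96, 0.69 and -0.21, and the last did not pass (adjusted p = 0.0582). Under that offset TFEB, CTSD, ATG2A, WIPI1 and ATG13 were still called lower at 1 h and higher at 10 h, ULK1 was not called at 1 h, and ATG3 was called lower at both times. With an offset for transcript length WIPI1 was not called at 1 h (-0.12, adjusted p = 0.341). What moved the GC-rich genes at 1 h was not tested.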

How the results depend on the processing

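With 2 libraries per condition, the calls rest on a spread shared between genes. Over all refits and stricter thresholds, 2052 member values were recomputed, of which 1809 kept their direction or stayed uncalled on the same side of the threshold, 147 lost a call, 59 gained one and 37 changed sign with a call in at least 1 of the fits. A further 56 of the 1809 changed sign between uncalled values. The GC-content offset gave 5 members higher at 1 h in place of 13, and 4 lower in place of 1 at 10 h and in place of 10 between the times; together with a replicate block it gave 5, 3 and 3. Requiring an absolute log2 fold change of at least 1 left 1 higher and 6 lower at 1 h, 3 and 0 at 10 h, and 9 and 1 between the times. Of all 16565 tested genes it left 1665 higher and 2309 lower at 1 h, 620 and 515 at 10 h, and 2714 and 2032 between the times. Without the low-count filter, 2 members fell at 10 h. Leaving out 1 library each gave between 9 and 14 members higher at 10 h (9 without Nut0h replicate 2) and between 1 and 3 lower (3 without Nut10h replicate 1, 2 without Nut0h replicate 2). Deviations of same-numbered libraries from their condition mean correlated at 0.446 for Nut0h and Nut10h. For Nut0h and Nut1h the value was -0.309, and for Nut1h and Nut10h it was -0.279. The replicate numbers thus gave no pairing common to the 3 conditions, and a pairing of Nut0h with Nut10h was not tested. The block alone gave 14 higher and 13 lower at 1 h, 15 and 1 at 10 h, and 18 and 11 between the times.

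At 1 h the values that changed sign with a call in at least 1 of the fits did so with the GC-content offset: DRAM2 -0.37, RB1CC1 -0.096, BECN1 -0.36, ATG14 -0.020, ATG3 -0.31, ATG4A -0.31, ATG4C -0.19, ATG5 -0.52, ATG12 -0.82, GABARAPL2 -0.36 and NBR1 -0.089. Between 1 h and 10 h such values were DRAM2 0.21, RB1CC1 0.36, ATG2B 0.49, VMP1 0.00743, ATG4B -0.15, ATG4C 0.052 and ATG5 0.37, and ATG2B was 0.39 with the length offset. Adding the replicate block to the GC-content offset changed the last printed digit for DRAM2 (-0.36) and ATG14 (-0.018) at 1 h and for ATG2B (0.48), VMP1 (0.00719) and ATG4C (0.050) between the times. These sign changes follow from removing each library's trend on GC content or length. The cause of the trend was not tested.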

Other observations

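The subunits of the V-ATPase, the proton pump that acidifies the lysosome, were measured as a further list of 17 genes. At 10 h, 2 rose and 0 fell in the edgeR fit: ATP6AP2, an accessory subunit (0.64 ± 0.10, adjusted p = 0.000206), and ATP6V1A, the catalytic subunit (0.36 ± 0.11, adjusted p = 0.0233). The 11.8% that rose stand beside 14.1% of all tested genes, and with the GC-content offset 4 rose and 0 fell (23.5%, beside 18.6% of all tested genes higher in that fit). At 1 h, 5 rose and 7 fell (29.4% and 41.2%, against 34.5% and 32.3% of all tested genes), and with that offset 3 rose and 10 fell (17.6% and 58.8%, against 19.1% and 27.3%). ATP6V0C, a subunit of the membrane ring, fell by 2.76 on the log2 scale at 1 h (SE 0.19, adjusted p = 9.33e-08, -1.74 with the GC-content offset) and rose by 3.02 from 1 h to 10 h (adjusted p = 9.05e-09).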
